A study of Mus musculus with 32 samples.

Results

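A set of 7 genes of glutamate uptake and the glutamate-glutamine cycle was followed through mouse spinal cord RNA: the glutamate transporters Slc1a1, Slc1a2 and Slc1a3, glutamine synthetase (Glul), the glutamine transporters Slc38a1 and Slc38a3, and glutamate dehydrogenase (Glud1). They are 7 of the 42524 genes in the count table and were chosen by name for their place in the cycle. All 7 passed the filter on low counts at both ages. The data are from 32 mice: genotype, treatment and age define 8 groups, each of 4 mice. WT mice were C57BL/6J littermates of the G93A mice, which carry a human SOD1 transgene with the G93A mutation on the same background and develop motor neuron disease. The transgene is a genomic copy under the promoter of human SOD1, so it is expressed in many cell types and not in motor neurons alone. Mice were untreated or received OKN-007, a nitrone with antioxidant properties, in drinking water. The labels give the ages as 90 and 155 days, while the methods of the study give the earlier age as 95 days. The labels assign no dose or sex to single mice and do not state which segment of the cord was taken. In the study, sacrifice at 95 and 155 days is described for the cohorts of its higher dose, which used females only. Treatment in these cohorts began before disease onset or, in a cohort sacrificed at 155 days, at 95 days. The RNA methods of the study name no dose, sex or start of treatment. RNA came from 25 mg of tissue per mouse, so each value is an average over all cells of the piece, and fewer cells of a type and less RNA per cell cannot be told apart. Expression of the human transgene was not analysed here.

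Glutamate released at synapses is cleared mainly by astrocytes, through GLT-1 (Slc1a2) and GLAST (Slc1a3), while EAAC1 (Slc1a1) is the transporter of neurons. Inside astrocytes glutamine synthetase joins glutamate and ammonia to glutamine, the exporter SNAT3 (Slc38a3) releases it and neurons take it up through carriers such as SNAT1 (Slc38a1) and make glutamate from it again. Glutamate dehydrogenase links glutamate to the citric acid cycle in mitochondria. Loss of GLT-1 protein from the spinal cord is a well-known feature of ALS and of SOD1 mutant rodents, and riluzole, a drug given in ALS, dampens glutamate signalling.

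At 155 days the glutamate transporters differed between the genotypes in opposite directions. In G93A mice Slc1a1 was lower than in WT mice and Slc1a3 was higher, with or without OKN-007. Slc1a2 was also higher in untreated G93A mice, while its ratio to a set of astrocyte genes was lower in each of these mice than in the WT mice, a difference that did not pass adjustment. Slc38a1 passed the test, as higher, in treated G93A mice, and Glul, Slc38a3 and Glud1 passed the test in neither comparison. At 90 days 0 of the 7 genes passed the test between the genotypes, and between treated and untreated mice 0 passed it at either age.

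The 3 glutamate transporters that passed the test in untreated mice at 155 days differ in CG content before a start, Slc1a1 against the others. The 250 bases before the RefSeq start of each (build GRCm38.p6, read on the strand of the gene) are shown because these are the genes that differed in untreated mice, and CG dinucleotides are in capitals.

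Slc1a1, chr19:28834885-28835134, plus strand: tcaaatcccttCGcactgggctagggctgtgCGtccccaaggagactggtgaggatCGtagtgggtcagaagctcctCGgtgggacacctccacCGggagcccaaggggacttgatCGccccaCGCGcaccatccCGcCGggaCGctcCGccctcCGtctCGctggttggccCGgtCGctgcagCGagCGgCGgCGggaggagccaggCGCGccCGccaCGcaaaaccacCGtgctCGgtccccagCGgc

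Slc1a2, chr2:102706188-102706437, plus strand: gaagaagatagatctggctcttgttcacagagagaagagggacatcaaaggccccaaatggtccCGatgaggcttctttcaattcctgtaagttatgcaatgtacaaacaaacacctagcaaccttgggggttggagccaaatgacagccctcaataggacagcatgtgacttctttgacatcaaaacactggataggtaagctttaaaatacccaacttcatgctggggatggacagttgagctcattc

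Slc1a3, chr15:8710808-8711057, minus strand: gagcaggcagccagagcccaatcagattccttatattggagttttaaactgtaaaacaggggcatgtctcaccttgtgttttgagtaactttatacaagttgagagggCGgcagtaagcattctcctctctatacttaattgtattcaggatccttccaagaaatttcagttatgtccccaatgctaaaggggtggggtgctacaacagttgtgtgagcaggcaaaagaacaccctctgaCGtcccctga

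The Slc1a1 stretch, of the gene that was lower, holds 27 CG and is 70.4% G and C. Among the 32851 promoters of the table, searched in the same window, 8.56% hold as many CG or more, and the median is 6. The Slc1a2 stretch holds 1 CG and the Slc1a3 stretch 2, both at 44.8% G and C, and 18.8% and 29% of promoters hold as few or fewer. At least 1 CG is found in 92.1% of the promoters. Of the other genes followed here, Glul has 15 CG and Glud1 46 in this window. Slc38a1 and Slc38a3 have no entry in the table. The Slc1a2 start used by RefSeq lies inside the gene as GENCODE draws it, so the window precedes 1 of its starts. These counts describe letters only, since no methylation or factor binding was measured.

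In WT and G93A cords alike, Glul was the most abundant of the 7 transcripts per length. Its median over the 32 mice was 428 CPM (counts scaled to library size) per kilobase of exon, followed by Glud1 at 113 and Slc1a2 at 73.6. Slc1a3 had 18.2 and Slc38a1 15.4, and the lowest were Slc38a3 at 9.91 and Slc1a1 at 6.78. These levels divide by the union of all annotated exons, which is longer than most single transcripts. At least 834 reads of each gene were counted in each mouse.

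**Figure D1:**
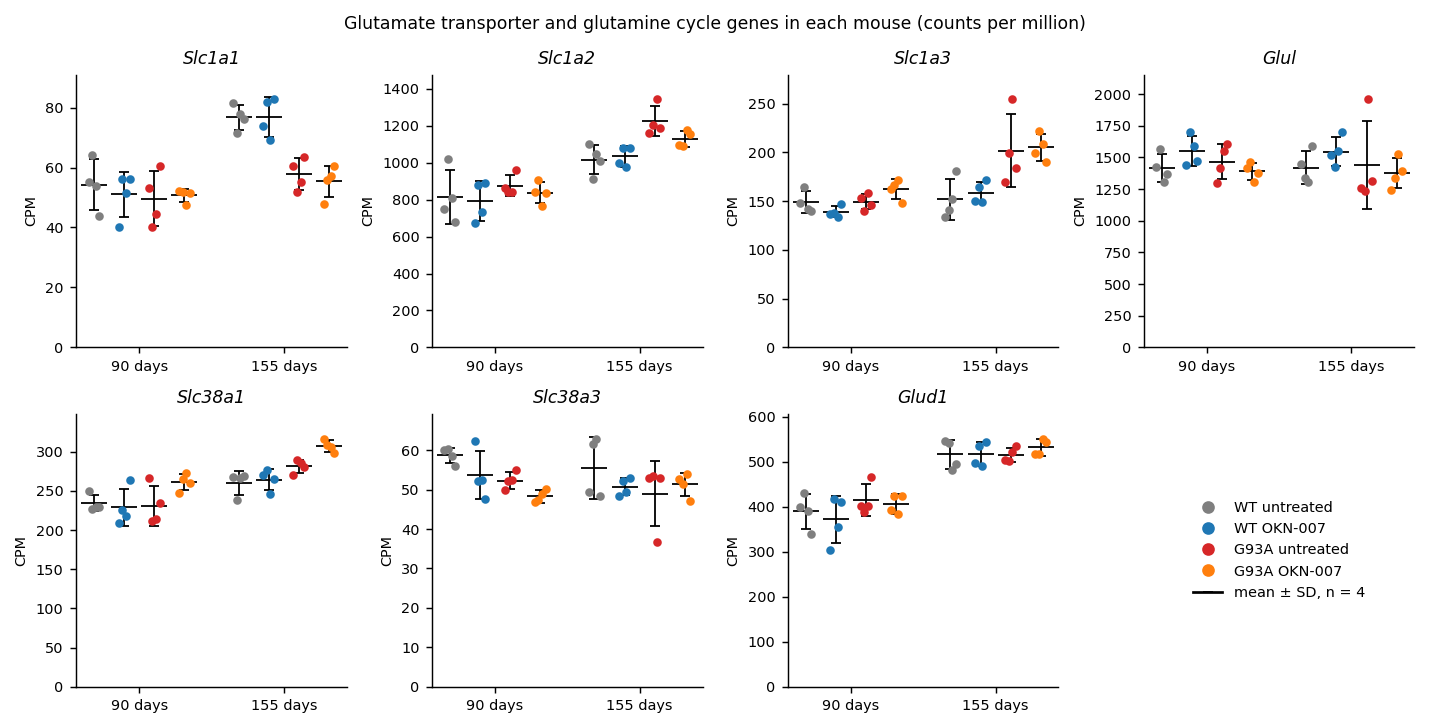
Level of each gene in every mouse, in CPM on a linear axis that starts at 0, for the 4 mice of each group at 90 and 155 days, where points are mice and lines the mean ± SD. At 155 days the G93A mice lie below the WT mice of the same treatment for Slc1a1 and above them for Slc1a2, while the groups overlap for Glul, Slc38a3 and Glud1.

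The comparison at 155 days asked what differed with the transgene, without the drug and with it. Slc1a1, the neuronal transporter, was lower in G93A than in WT mice. The gene (ENSMUSG00000024935) lies on chromosome 19 from 28835049 to 28913960 on the plus strand of GRCm38. In untreated WT mice its levels were 81.5, 71.4, 78.0 and 76.1 CPM, and in untreated G93A mice 60.7, 51.7, 55.1 and 63.5 CPM. The highest G93A mouse was below the lowest WT mouse. The mean was 76.8 ± 4.22 (SD, n = 4) in WT and 57.8 ± 5.33 (SD, n = 4) in G93A mice. The log2 fold change was -0.40 with an SE of 0.085, at an adjusted p of 0.00108 by edgeR's quasi-likelihood test with Benjamini-Hochberg adjustment over all 18675 genes tested. Treated mice showed the same order. Treated WT mice had 73.9, 81.7, 69.1 and 82.7 CPM and treated G93A mice 48.0, 55.8, 57.3 and 60.4 CPM, again without overlap. There the log2 fold change was -0.44 with an SE of 0.085 (adjusted p = 0.000378, edgeR). Slc1a1 shares sequence with 4430402I18Rik on the opposite strand. The 2 genes overlap over 2631 exonic bases, and 4430402I18Rik held 3796 counts in all against 49885 for Slc1a1.

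Slc1a2, which encodes the main astrocytic transporter GLT-1, was higher in untreated G93A mice at 155 days. It lies on chromosome 2 from 102658659 to 102790784 on the plus strand. Its 4 untreated WT mice had 1103, 910.1, 1044 and 1009 CPM and the 4 untreated G93A mice 1161, 1203, 1342 and 1189 CPM. Every G93A mouse was above every WT mouse, and the highest was replicate 11. The log2 fold change was 0.28 with an SE of 0.072 (adjusted p = 0.00427, edgeR). In treated mice the WT levels were 997.5, 1081, 974 and 1080.0 CPM and the G93A levels 1096, 1089, 1178 and 1152 CPM. The groups did not overlap there either, but they nearly touched, and the log2 fold change of 0.16 with an SE of 0.072 did not pass the test (adjusted p = 0.0779, edgeR). The difference between treated and untreated mice in this change was -0.12 with an SE of 0.10 and was not past the threshold (adjusted p of 1.0, edgeR).

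Slc1a3, which encodes GLAST, the other astrocytic transporter, had the highest log2 fold change of G93A over WT of the 7 in untreated mice. It lies on chromosome 15 from 8634124 to 8710764 on the minus strand. Untreated WT mice had 134, 141, 153 and 181 CPM and untreated G93A mice 169.9, 199.1, 254 and 184 CPM. One WT mouse, replicate 4, lay among the G93A mice, and G93A replicate 11 stood well above the rest. The log2 fold change was 0.42 with an SE of 0.11 (adjusted p = 0.00511, edgeR). In treated mice the levels were 151, 164, 149 and 171 CPM in WT and 199.7, 222, 209 and 190.4 CPM in G93A mice. These groups did not overlap, and the log2 fold change was 0.41 with an SE of 0.11 (adjusted p = 0.00627, edgeR).

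Slc38a1, the carrier known for glutamine uptake into neurons, was higher in treated G93A than in treated WT mice. It lies on chromosome 15 from 96571418 to 96642913 on the minus strand. Treated WT mice had 270.4, 276, 245 and 265 CPM and treated G93A mice 317, 308, 306 and 299 CPM, with all G93A mice above all WT mice. The log2 fold change was 0.25 with an SE of 0.063 (adjusted p = 0.00325, edgeR). In untreated mice the WT levels were 267, 238, 267 and 269 CPM and the G93A levels 269.7, 289.6, 286 and 279.9 CPM. The groups were apart by under 1 CPM, and the log2 fold change of 0.13 with an SE of 0.063 did not pass the test (adjusted p = 0.12, edgeR). The difference between these changes was 0.13 with an SE of 0.089 (unadjusted p = 0.174, edgeR), so the genotype difference was not shown to differ with treatment.

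Glul, the enzyme that makes glutamine, did not pass the test in either comparison at 155 days. It lies on chromosome 1 from 153899944 to 153909723 on the plus strand. Untreated WT mice had 1446, 1340.0, 1302 and 1589 CPM and untreated G93A mice 1257, 1233, 1958 and 1311 CPM. All but 1 of the G93A mice were below the WT mean, and replicate 11 was above every WT mouse. Its fold change on the log2 scale was 0.035 with an SE of 0.12 (adjusted p = 0.842, edgeR), and without replicate 11 it was -0.14, still not past the threshold. Treated mice had 1515, 1423, 1549 and 1698 CPM in WT and 1242, 1337, 1528 and 1389 CPM in G93A mice. These groups overlapped, with a log2 fold change of -0.14 and an SE of 0.12 (adjusted p = 0.393, edgeR).

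Slc38a3, the exporter of glutamine, lies on chromosome 9 from 107650634 to 107669530 on the minus strand. Untreated WT mice had 49.3, 61.6, 62.9 and 48.3 CPM at 155 days and untreated G93A mice 52.9, 53.5, 36.6 and 52.9 CPM. The groups overlapped, and the lowest of all 32 mice was G93A replicate 11, the mouse with the most Glul. On the log2 scale the fold change was -0.16 with an SE of 0.11 in untreated mice (adjusted p = 0.252, edgeR), and without replicate 11 it was -0.035. It was 0.051 with an SE of 0.11 in treated mice (adjusted p = 0.746, edgeR).

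Glud1, the mitochondrial glutamate dehydrogenase, lies on chromosome 14 from 34310727 to 34345265 on the plus strand. At 155 days it was between 481 and 545 CPM in untreated WT mice and between 502 and 534 CPM in untreated G93A mice. The group means were 516 ± 32.5 and 515 ± 15.1 CPM (SD, n = 4 each). Its fold change on the log2 scale was 0.012 with an SE of 0.064 untreated and 0.078 with an SE of 0.064 treated (adjusted p = 0.899 and 0.36, edgeR).

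In untreated mice at 155 days, 3 of the 7 genes thus passed the test, 2 higher and 1 lower, where 39.5% of all genes tested did. In treated mice it was again 3 of 7, where 41.5% of all genes did. The groups did not overlap for 3 of the 7 genes untreated, against 32.7% of all genes, and for 4 of 7 treated, against 44.5%. These shares are near those of all genes, so the 7 genes did not stand apart by how many changed. The median log2 fold change of the 7 was 0.0353 untreated, beside 0.000157 over all genes, and 0.0776 treated, beside 0.0181. The calls in untreated and in treated mice come from different mice, whereas the comparisons of genotype, of treatment and of age below share groups of mice with these. A caudal Hox score, the mean log2(CPM + 1) of 9 Hox genes of the posterior cord, was 1.63 to 3.6 in untreated G93A and 3.75 to 4.48 in untreated WT mice at 155 days, and 2.38 to 3.61 and 4.31 to 4.54 in treated ones. These ranges do not overlap between the genotypes, so a fit with the score can hardly tell cord level from genotype. With this score as a covariate all 6 calls at 155 days were kept. Slc1a1 moved to -0.32 untreated and -0.37 treated (adjusted p = 0.043 and 0.0185, edgeR). Slc1a2 was at 0.325 untreated and Slc38a1 at 0.26 treated (adjusted p = 0.0183 and 0.0319, edgeR). Slc1a3 was at 0.64 untreated and 0.61 treated. Glul moved to 0.30 untreated and 0.13 treated (adjusted p = 0.0893 and 0.477, edgeR). Slc38a3 moved to -0.32 untreated and -0.09 treated (adjusted p = 0.11 and 0.672, edgeR), which for treated mice is a change of sign. The part of the cord level in these differences was not tested further.

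**Figure D2:**
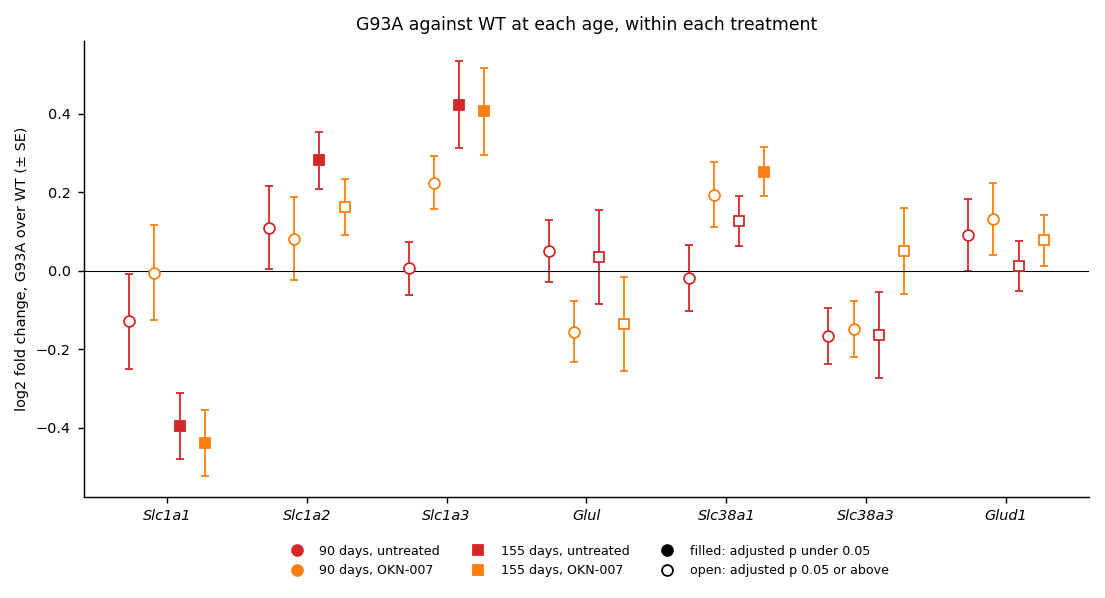
Log2 fold change of G93A over WT with its SE for each gene, at 90 days (circles) and 155 days (squares), in untreated (red) and treated (orange) mice, where filled symbols passed an adjusted p of 0.05. The filled symbols are all at 155 days, with Slc1a1 near -0.40 and -0.44 and Slc1a3 near 0.42 and 0.41.

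At 90 days the genotypes were compared to see what preceded the later differences. None of the 7 genes passed edgeR's quasi-likelihood test, in untreated or in treated mice, and neither did any of the 18899 genes tested, so the share called over all genes was 0% in both. At an unadjusted p under 0.05 the counts over all genes were 1126 untreated and 747 treated. By DESeq2 16 and 3 genes passed the adjusted threshold, and by edgeR's likelihood ratio test 11 and 3, with 0 of the 7 among them. Of the 7 genes Slc38a3 had the smallest unadjusted p in untreated mice. Its levels were 60.0, 60.3, 58.4 and 55.9 CPM in WT and 49.8, 52.1, 52.3 and 54.8 CPM in G93A mice. The groups did not overlap, as was the case for 1 of the 7 genes and 2.40% of all genes, and the log2 fold change was -0.17 with an SE of 0.072 (unadjusted p = 0.033, adjusted p = 0.822, edgeR).

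In treated mice at 90 days Slc1a3 had already the order it showed later. Treated WT mice had 137, 138, 134 and 148 CPM and treated G93A mice 163, 167, 172 and 148 CPM. The groups did not overlap, as was the case for 1 of the 7 genes and 2.84% of all genes, though the nearest mice of the 2 groups were less than 1 CPM apart. On the log2 scale the fold change of 0.22 with an SE of 0.068 did not pass the adjusted test (unadjusted p = 0.00375, adjusted p of 1.0, edgeR). Slc38a1 was at 0.19 with an SE of 0.083 (unadjusted p = 0.0317) and Glul at -0.16 with an SE of 0.079 (unadjusted p = 0.0644, edgeR). In untreated mice the same 3 differences were 0.0063 for Slc1a3, -0.019 for Slc38a1 and 0.050 for Glul. For the interaction of genotype and treatment at 90 days edgeR's quasi-likelihood test called 0 genes, with 531 past an unadjusted p of 0.05, and DESeq2 and the likelihood ratio test called 0 as well. Of the 7 genes Slc1a3 had the smallest p there, at 0.22 with an SE of 0.096 (unadjusted p = 0.0346, adjusted p of 1.0, edgeR).

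Whether the difference between genotypes changed from 90 to 155 days was tested directly in a fit of all 32 mice. In untreated mice Slc1a3 passed, 1 of the 7 genes where 21.2% of all genes did, 12.9% higher and 8.34% lower. Its G93A difference grew by 0.40 on the log2 scale with an SE of 0.13 (adjusted p = 0.0308, edgeR). In treated mice the same change was 0.15 with an SE of 0.13 and did not pass (adjusted p = 0.466, edgeR). The untreated call was lost with no filter on low counts (0.40, adjusted p = 0.0656) and when only the 4 groups compared were fitted (0.41, adjusted p = 0.088). It was also lost on leaving out any 1 of 7 mice: WT replicate 2 or G93A replicate 12 of 90 days, WT replicates 1, 2 or 3 or G93A replicates 10 or 11 of 155 days. Without those mice the value was 0.27 to 0.40 and the adjusted p 0.0512 to 0.116, the extreme being the mouse with the most Slc1a3, G93A replicate 11 of 155 days.

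In treated mice Slc1a1 was the one that passed, 1 of 7 where 23.0% of all genes did, 9.97% in the lower direction. Its G93A difference changed by -0.46 on the log2 scale with an SE of 0.16 (adjusted p = 0.0344, edgeR). In untreated mice the same change was -0.28 with an SE of 0.16 (adjusted p = 0.223). The treated call was lost on leaving out any 1 of 8 mice: WT replicates 5 or 7 or G93A replicates 13, 14 or 16 of 90 days, WT replicates 6 or 8 or G93A replicate 13 of 155 days. The value was then between -0.47 and -0.37 and the adjusted p between 0.0504 and 0.105. Slc1a2, although called at 155 days and not at 90 days in untreated mice, had a change of 0.16 with an SE of 0.14 (adjusted p = 0.445), so its 2 differences were not shown to differ. Ages were collected as separate groups of mice, and age cannot be told apart from anything else that differed between the collections.

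The same fit showed how the genes moved with age within a genotype. In untreated WT mice Slc1a1, Slc1a2 and Glud1 were higher at 155 than at 90 days, 3 of 7 genes where 24.9% of all genes were called, 15.3% higher and 9.61% lower. Slc1a1 was 55.1, 64.3, 53.9 and 43.9 CPM at 90 days, all below the 155-day mice given above, with a log2 fold change of 0.50 and an SE of 0.11 (adjusted p = 0.00213, edgeR). Glud1 was 399, 431, 389.6 and 338 CPM at 90 days and 545, 542, 481 and 495 CPM at 155 days, without overlap. Its log2 fold change was 0.41 with an SE of 0.083 (adjusted p = 0.000931, edgeR). The groups did not overlap for these 2 of the 7 genes, against 18.9% of all genes. Slc1a2 was 748, 1017, 807 and 676 CPM at 90 days and overlapped with the older mice. Its log2 fold change of 0.32 with an SE of 0.097 (adjusted p = 0.0144, edgeR) lost its call with only the 2 groups fitted (adjusted p = 0.0857) and without WT replicate 1 or 4 of 90 days or replicate 1 of 155 days (0.21 to 0.29, adjusted p 0.0585 to 0.146).

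In untreated G93A mice Slc1a2, Slc1a3, Slc38a1 and Glud1 were higher at 155 days, 4 of 7 where 33.7% of all genes were called, 21.0% higher and 12.8% lower. Slc1a2 was 861, 841, 839 and 959 CPM at 90 days, and its log2 fold change was 0.48 with an SE of 0.097 (adjusted p = 0.000224, edgeR). Slc1a3 was 153, 140.2, 158 and 146 CPM at 90 days, with a log2 fold change of 0.43 and an SE of 0.095 (adjusted p = 0.000614, edgeR). All older G93A mice were above all younger ones for both transporters, as they were for Slc38a1 (0.28, SE 0.072) and Glud1 (0.31, SE 0.083), that is for 4 of 7 genes against 27.7% of all genes. Slc1a1, which rose with age in WT mice, was 53.1, 40.2, 44.4 and 60.6 CPM at 90 days in G93A mice, and its change with age was 0.22 with an SE of 0.11 (adjusted p = 0.141, edgeR). Without G93A replicate 12 of 90 days, the mouse with the most Slc1a1 there, the change was 0.33 and passed (adjusted p = 0.0259). The WT and G93A changes of Slc1a1 with age differ by the -0.28 tested above. The changes of Glul and Slc38a3 with age did not pass the test in either genotype. They were 0.0032 and -0.08 in WT mice and -0.026 and -0.093 in G93A mice. Leaving out 1 mouse gave Glul values down to -0.21 in G93A mice, and Slc38a3 values from -0.17 to -0.017 in WT and from -0.17 to 0.026 in G93A mice.

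Markers of several cell types moved with age beside these genes. In untreated G93A mice 6 of 10 astrocyte markers were higher at 155 days and 1 was lower, and their sums were 6986 to 9013 CPM at 90 days and 14390 to 18620 CPM at 155 days. All 7 microglia markers were higher there, with sums of 332 to 491 CPM at 90 days and 1088 to 1795 CPM at 155 days, while 3 of 6 neuron and 4 of 6 motor neuron markers were lower. In untreated WT mice 2 of 10 astrocyte markers were higher and 3 lower, with sums of 6770.0 to 7671 CPM at 90 days and 5156 to 5727 CPM at 155 days, and 2 of 6 neuron markers were higher. Oligodendrocyte markers were lower at 155 days, 6 of 6 in WT and 5 of 6 in G93A mice. The part of these cell types in the changes of Slc1a1, Slc1a2, Slc1a3, Slc38a1 and Glud1 with age was not tested.

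OKN-007 was compared with no treatment within each genotype. By edgeR's quasi-likelihood test 0 of the 7 genes and 0% of all genes passed in any of the 4 comparisons. At an unadjusted p under 0.05 the counts over all genes were 755 in G93A and 549 in WT mice at 155 days, and 1050 and 769 at 90 days. DESeq2 called 2 genes and the likelihood ratio test 4 in WT mice at 155 days and 0 in the other 3 comparisons, and the 7 genes were not among them. Slc38a1 was the nearest to a change, and it was so at both ages in G93A mice. At 155 days the 4 treated G93A mice were above the 4 untreated ones, by 0.14 on the log2 scale with an SE of 0.063 (unadjusted p = 0.0427, adjusted p of 1.0). The groups did not overlap for this 1 gene of the 7, against 3.06% of all genes. In the other comparisons with OKN-007 0 of the 7 genes were without overlap, where 1.84% of all genes were in WT mice at 155 days, 2.88% in G93A mice at 90 days and 2.03% in WT mice at 90 days. At 90 days the levels were 247, 265, 273 and 259.9 CPM treated and 266, 211, 214 and 234 CPM untreated, with 1 untreated mouse among the treated. Its fold change on the log2 scale there was 0.18 with an SE of 0.083 (unadjusted p = 0.0455, adjusted p = 0.837). In WT mice it was 0.011 with an SE of 0.063 at 155 days and -0.034 with an SE of 0.083 at 90 days.

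None of the glutamate transporters passed the test for an effect of OKN-007. In G93A mice at 155 days the log2 fold changes were -0.053 with an SE of 0.085 for Slc1a1, -0.11 with an SE of 0.072 for Slc1a2 and 0.034 with an SE of 0.11 for Slc1a3. Glul was at -0.059 with an SE of 0.12, and this value was 0.12 without the untreated replicate 11. Over the 4 comparisons and 7 genes the changes with OKN-007 lay between -0.14 and 0.18. The interaction of genotype and treatment at 155 days was not past the threshold for any of the 7 genes, and over all genes edgeR's quasi-likelihood test called 0, with 436 past an unadjusted p of 0.05, DESeq2 2 and the likelihood ratio test 3.

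Cell type markers were read beside these values. All 10 astrocyte, 6 neuron, 6 motor neuron, 6 oligodendrocyte, 7 microglia and 4 endothelial markers were above 3 counts in all 32 mice. At 155 days untreated G93A mice had 6 of 10 astrocyte markers higher and 0 lower, and treated G93A mice 7 of 10 higher. The summed astrocyte markers were 14390 to 18620 CPM in untreated G93A mice and 5156 to 5727 CPM in untreated WT mice, a sum to which Gfap, the intermediate filament of reactive astrocytes, contributes. All 7 microglia markers were higher in both comparisons. All 6 neuron markers were lower in both, with a sum of 2349 to 3079 CPM in untreated G93A mice against 3645 to 4377 CPM in WT mice, and 5 of 6 motor neuron markers were lower untreated and 6 of 6 treated. Of 6 oligodendrocyte markers 1 was higher in each comparison, and of 4 endothelial markers 0 were lower untreated and 2 treated. Caudal Hox genes were lower for 4 of 9 untreated and 6 of 9 treated. Of 7 liver markers, 1 was above 3 counts in all mice, and their sum reached 190.2 CPM in untreated G93A replicate 12 and 133 CPM in treated G93A replicate 15 of 155 days, and 76.8 CPM in treated WT replicate 6 of 90 days. Without the 3 libraries with the most Alb reads the calls of the 7 genes at 155 days were kept. In both comparisons Slc1a1, the transporter of neurons, was lower beside lower neuron markers, and Slc1a3 was higher beside higher astrocyte markers. Slc1a2 passed the test as higher only in untreated mice. With age in untreated WT mice it was higher, by 0.32 on the log2 scale, while the sum of all 10 astrocyte markers was lower. The sum of Aldh1l1, Sox9, Atp1b2, Slc4a4 and Fgfr3 alone was not lower there. It was 1423 to 1902 CPM at 90 days and 1666 to 1759 CPM at 155 days. With age in untreated G93A mice Slc1a2 and the sum of all 10 astrocyte markers were both higher. The part of cell numbers in these differences was not tested.

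Within groups some of the genes varied with summed cell type markers, and others did not. Deviations of each mouse from its group mean were compared over the 32 mice. The points share the library from which both values were read. Slc1a1 ran with the summed neuron markers (r = 0.85) and Glud1 likewise (r = 0.67), but not with these alone. For Slc1a1 r was also 0.57 with motor neuron, -0.65 with microglia, -0.52 with all 10 astrocyte and -0.43 with oligodendrocyte markers. For Glud1 it was 0.55 with motor neuron markers, -0.55 with oligodendrocyte markers and 0.45 with the sum of 5 astrocyte reference genes. For Slc1a2, Slc1a3 and Glul r was 0.66, 0.66 and 0.67 with the sum of 5 astrocyte reference genes, but -0.044, 0.38 and 0.074 with the sum of all 10 astrocyte markers, which includes Gfap. Slc1a2 had r of 0.53 with neuron and 0.55 with motor neuron markers. Without untreated G93A replicate 11 of 155 days, the r with the reference was 0.68 for Slc1a2, 0.45 for Slc1a3 and 0.41 for Glul. With neuron markers r was then 0.64, -0.13 and 0.53 for these genes, where Glul had 0.16 over the 32 mice. Without that mouse Glul also had r of 0.51 with motor neuron and -0.47 with microglia markers. Slc38a1 and Slc38a3 followed neither closely, with r of 0.11 and 0.053 for neuron markers and 0.22 and -0.35 for the astrocyte reference, the last of which was 0.11 without that mouse. Among the 7 genes the closest pairs by deviations were Slc1a1 with Glud1 (r = 0.80), Slc1a2 with Glud1 (r = 0.78) and Slc1a1 with Slc1a2 (r = 0.73). Between Glul and Slc38a3 r was -0.58 over the 32 mice and -0.20 without replicate 11, the mouse with the most Glul and the least Slc38a3.

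Slc1a2 was also set against other astrocyte genes within each mouse. Its log2 ratio was taken to the geometric mean of the reference genes Aldh1l1, Sox9, Atp1b2, Slc4a4 and Fgfr3, a set without Gfap. A ratio within a mouse does not depend on library size. At 155 days it was 2.53, 2.27, 2.44 and 2.45 in untreated WT mice and 2.23, 1.98, 1.89 and 2.17 in untreated G93A mice. All G93A mice were below all WT mice, by 0.36 on the log2 scale, so Slc1a2 was higher by CPM and lower by this ratio in the same mice. In treated mice it was 2.39, 2.45, 2.33 and 2.51 in WT and 1.85, 1.93, 1.90 and 2.01 in G93A mice, lower by 0.50 with no overlap. Each had p = 0.0286 by the exact permutation test, two-sided, which is the smallest that 4 against 4 mice can give. Over the 16 ratio tests each had an adjusted p of 0.114 (exact permutation test). Adjustment could be passed only with most of the 16 tests at that smallest p. The summed reference genes were 2125 to 3141 CPM in untreated G93A and 1666 to 1759 CPM in untreated WT mice. In treated mice they were 2354 to 2730 CPM in G93A and 1634 to 1823 CPM in WT mice. More astrocytes and more expression of these genes per cell cannot be told apart here. At 90 days the ratio overlapped between genotypes, with differences of 0.086 untreated and -0.0091 treated (exact permutation p = 0.543 and 0.914).

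The other 2 ratios set genes of the cycle against each other. Slc1a2 to Slc1a3 was lower in treated G93A mice by 0.24 at 155 days, with no overlap (exact permutation p = 0.0286, adjusted 0.114), and in untreated mice by 0.13 with overlap (exact permutation p = 0.371). The ratio of the glutamine carriers, Slc38a3 to Slc38a1, was lower by 0.20 in treated G93A mice, with no overlap (exact permutation p = 0.0286, adjusted 0.114), and by 0.30 with overlap in untreated ones (exact permutation p = 0.286), a value that was -0.16 without replicate 11. At 90 days this ratio was lower by 0.34 in treated G93A mice and by 0.14 in untreated ones, both with overlap (exact permutation p = 0.0857 and 0.171). The ratio of Slc1a2 to Slc1a3 at 90 days was 0.12 higher in untreated and 0.13 lower in treated G93A mice, with overlap (exact permutation p = 0.314 and 0.286).

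**Figure D3:**
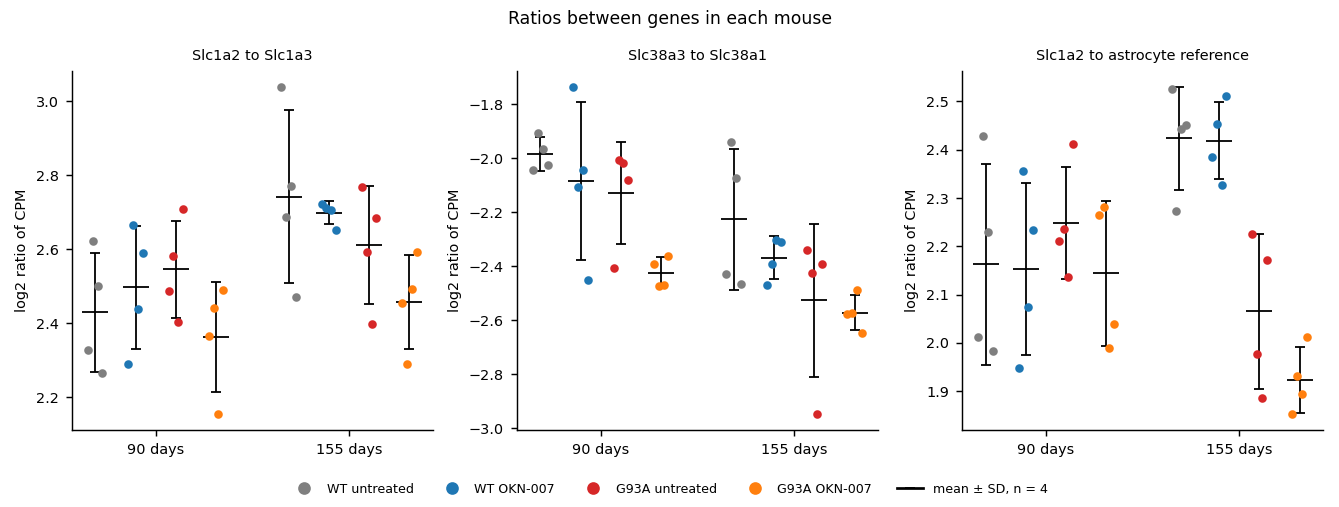
Log2 ratios of CPM in each mouse for 3 ratios, with points for mice and lines for the mean ± SD of 4 mice. Each panel has its own axis, which does not start at 0. In the last panel the G93A mice at 155 days lie between 1.85 and 2.23 and the WT mice between 2.27 and 2.53, while the groups overlap at 90 days.

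The rest of the pathway was read from a list of 35 genes of glutamate, glutamine and GABA handling, of which 34 passed the filter and Slc1a7, under 1 CPM in all mice, did not. In untreated mice at 155 days 23 of the 34 were called, 5 higher and 18 lower, where 21.3% of all genes were higher and 18.2% lower. In treated mice 24 were called, 6 higher and 18 lower, where 23.3% and 18.2% of all genes were. The median log2 fold change of the list was -0.325 untreated and -0.283 treated, beside 0.000157 and 0.0181 over all genes. At 90 days 0 of the 34 were called in either comparison by edgeR, with 1 untreated and 0 treated at an unadjusted p under 0.05.

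Among the genes of the list that passed the test in untreated mice at 155 days, Slc17a6, Slc6a11, Slc32a1, Grm3 and Gls2 had the lowest log2 fold changes. Slc17a7 was lower still, at -1.38 with an SE of 0.59, but did not pass the test (adjusted p = 0.0734, edgeR). Slc17a6, the vesicular glutamate transporter of spinal excitatory neurons, went from 192 ± 26.1 CPM in untreated WT to 101 ± 29.2 CPM in untreated G93A mice (SD, n = 4 each), with a log2 fold change of -0.91. Slc6a11, a GABA transporter of astrocytes, went from 266 ± 13.8 to 142 ± 36.9 CPM, and Slc32a1, which loads GABA and glycine into vesicles, from 226 ± 21.2 to 137 ± 31.5 CPM. Their log2 fold changes were -0.89 and -0.70. Grm3, a metabotropic glutamate receptor, was at -0.61, and Gls2 was at -0.55 on the log2 scale (adjusted p = 0.000296, edgeR). The treated mice had -0.79 for Slc17a6, -1.09 for Slc6a11 and -0.61 for Gls2, all past the threshold.

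The 5 genes of the list that passed the test as higher in untreated G93A mice were Slc1a5, Bcat2, Slc1a4, Gpt2 and Arl6ip5. Slc1a5, which carries neutral amino acids including glutamine, was between 0.931 and 1.83 CPM in untreated WT mice and between 2.34 and 16.7 CPM in untreated G93A mice, so no mice overlapped. Its log2 fold change was 2.33 with an SE of 0.47 untreated and 1.42 with an SE of 0.46 treated (adjusted p = 0.000631 and 0.0187, edgeR). Slc1a4, a carrier of alanine and serine, went from 41.5 ± 2.05 to 59.3 ± 5.06 CPM (SD, n = 4 each; log2 fold change 0.53). Bcat2, the mitochondrial branched-chain transaminase, was at 0.66, Gpt2, the mitochondrial alanine transaminase, at 0.45, and Arl6ip5, a protein known to bind and restrain the Slc1a1 transporter, at 0.20. The glutamine carriers Slc38a2 and Slc38a5 and the cystine-glutamate exchanger Slc7a11 did not pass the test in either comparison, with -0.050, 0.064 and -0.078 untreated.

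**Figure D4:**
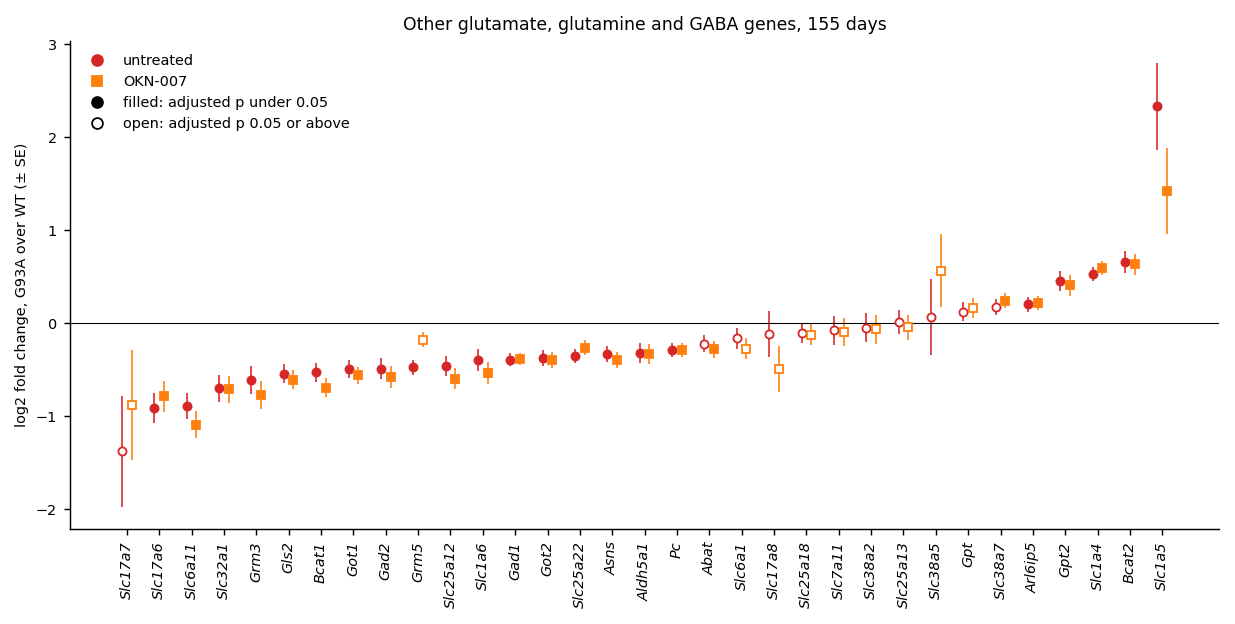
Log2 fold change of G93A over WT with its SE at 155 days for 33 of the 34 tested genes of the pathway list, untreated (red circles) and treated (orange squares), ordered by the untreated value, where filled symbols passed an adjusted p of 0.05. Most symbols lie below 0, with Slc1a5 at 2.33 and 1.42 and Bcat2, Slc1a4, Gpt2 and Arl6ip5 also above 0 and filled.

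For each of the 7 genes the 3 most alike among the 19829 genes were found by Pearson's r of log2(CPM + 1) over the 32 mice, which share groups, libraries and depth. The values are descriptions, with r of the deviations from group means in the second place. Slc1a1 was most like Brms1l (0.98, 0.94), Mapk6 (0.97, 0.95) and Btbd10 (0.97, 0.94), and Slc1a2 most like Galnt1 (0.96, 0.93), Nrcam and Sdcbp. Slc1a3 was most like Spon1 (0.93, 0.85) and Vcl (0.93, 0.82). Glul was most like Kcnk1 (0.86, 0.89), Gjb6 (0.83, 0.92), which encodes an astrocyte gap junction protein, and Mfsd2a (0.82, 0.90). Glud1 was most like Pfkfb3 (0.96, 0.87), Copb1 and Copb2. For Slc38a1 the closest was Kcnn3 (0.87, 0.66). Slc38a3 had no close partner, the nearest being AU021092 (0.66, 0.62).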

How the data were processed

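Spinal cord mRNA of 32 mice was sequenced from TruSeq Stranded mRNA libraries. The authors deposited raw counts per gene, not normalized. The study's methods name STAR, HTSeq and GENCODE M10, while the submitters' processing notes name STAR, featureCounts, edgeR and the builds GRCm39, mm39 and hg38. Whether strand was used in counting is not given in the sources used here. All 1306 gene IDs without a symbol are numbered above the highest ID of GENCODE M21, so the annotation behind the table is later than M21. Symbols (41218 of 42524 IDs, 96.9%), gene positions and exon lengths were taken from GENCODE M21 (GRCm38) and promoters from RefSeq (GRCm38.p6), with 5 of the 7 genes matched. No column was left out.

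The totals of the 32 libraries ran from 19701722 to 30138257 counts, and 3 counts in the smallest library are 0.152 CPM, which covers counting error only. No 2 libraries of a group agreed within sampling noise. Counts were tested with edgeR 4.0.16 (limma 3.58.1, R 4.3.3): TMM, filterByExpr, glmQLFit and glmQLFTest, two-sided, as 4 groups within an age (18675 genes at 155 days, 18899 at 90 days) or 8 groups (19829 genes), with Benjamini-Hochberg adjustment over all genes and a threshold of 0.05. CPM values are TMM-scaled. The labels name no sequencing batch. Nothing beyond the labels says how the mice were sampled, so p-values measure the spread between these mice. Log2 ratios used a pseudocount of 0.5 CPM and an exact permutation test. One gene of the pathway list, and the 4 of the 16 ratio tests that use it, are not reported here, while the counts over the list and the adjustment over 16 tests include them. The scripts were tested on simulated data.

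The 7 genes, the pathway list and the marker lists were chosen with earlier results of these data known. Named from the pathway list are the called genes with the 5 largest and 5 smallest log2 fold changes in untreated mice at 155 days. Gls2, Slc38a2, Slc38a5 and Slc7a11 are named too, and Slc17a7 for having the lowest value there. Genes alike are the 3 with the highest r. Correlations with summed markers, and the correlations without G93A replicate 11, were computed after the values were seen. Alternatives were DESeq2 1.42.0, the likelihood ratio test, RLE factors, other filters, thresholds and samples, a caudal Hox covariate, a block for the sample number and leaving out each mouse.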

Additional observations from a re-analysis of the deposited data

Results flagged for a closer look

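In 80 sets of 4 mice (7 genes and 3 ratios in 8 groups), 7 held a mouse far from the other 3 by Dixon's test, where chance alone gives about 4. Of these, 3 came from a single library, the untreated G93A mouse of 155 days called replicate 11. It had 1958 CPM of Glul beside 1233 to 1311 CPM in the other 3 mice, 36.6 CPM of Slc38a3 beside 52.9 to 53.5 CPM, and a log2 ratio of Slc38a3 to Slc38a1 of -2.95. The same mouse had the highest Slc1a3, 254 CPM, and the highest sum of astrocyte reference genes of its group.

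The other 4 were Slc1a1 at 47.5 CPM in treated G93A replicate 15 of 90 days, Slc38a1 at 249 CPM in untreated WT replicate 1 of 90 days and at 238 CPM in untreated WT replicate 2 of 155 days, and Glud1 at 466 CPM in untreated G93A replicate 12 of 90 days.

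Differences of effects between ages passed the test for 2 of the 7 genes. The G93A difference of Slc1a3 in untreated mice changed by 0.40 on the log2 scale from 90 to 155 days, and that of Slc1a1 in treated mice by -0.46. The counterparts, 0.15 for Slc1a3 in treated and -0.28 for Slc1a1 in untreated mice, did not pass. Both calls were lost on leaving out single mice, 7 for Slc1a3 and 8 for Slc1a1.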

How the results depend on the processing

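Under the alternatives the 15 called differences of the 7 genes gave 301 values: 265 stayed past the threshold in the same direction, 36 did not, and 0 reversed. For 2 of the alternatives the outcome was fixed in advance. The looser adjusted p of 0.10 could lose no call. Requiring a log2 fold change of at least 1 had to lose all 15, since each was smaller than that. The 83 differences that were not called gave 1771 values, of which 2 passed the threshold and 132 had the other sign without passing it. The calls of Slc1a1, Slc1a2 and Slc1a3 (untreated) and of Slc1a1, Slc1a3 and Slc38a1 (treated) at 155 days were kept on leaving out each mouse.

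With a log2 fold change of at least 1 required, 0 of the 7 genes were called in any of the 6 comparisons that had calls. In the order G93A untreated and treated at 155 days, change of the G93A difference untreated and treated, and age in WT and in G93A mice, the pathway genes called were then 1, 2, 1, 1, 0 and 1 and all genes 1717, 1888, 1416, 1434, 495 and 1602. With no filter on low counts, all genes called were 17 and 10 for OKN-007 in G93A and WT mice and 8 for the interaction at 155 days, and at 90 days 39 and 24 for G93A untreated and treated, 8 and 14 for OKN-007 in G93A and WT mice and 3 for the interaction. The likelihood ratio test gave 4 for OKN-007 in WT mice and 3 for the interaction at 155 days, and 11 and 3 for G93A untreated and treated at 90 days; DESeq2 gave 2, 2, 16 and 3. All 32 mice in one fit gave 2, 1 and 1 for the first 3 of these, and only the groups compared gave 3 for G93A treated at 90 days. The untreated change of the G93A difference had 0 of the 7 genes called with no filter and with only the groups compared. The cause of these shifts was not tested.

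Leaving out each mouse gave 0 to 3 genes in all for OKN-007 in WT mice and 0 to 1 for the interaction at 155 days, and 0 to 4 for G93A untreated at 90 days. For the change of the G93A difference it gave 0 to 1 of the 7 genes, untreated and treated, and 8 to 19 pathway genes untreated. For age in WT mice it gave 3115 to 6035 genes and 8 to 19 pathway genes.

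Sample numbers recur at both ages on different mice. With the number as a replicate block the 7 genes had 1, 1, 3 and 4 calls in the 4 comparisons between ages, as without it, and all genes 4197, 4624, 4823 and 6473. Of 16 pairs of deviations, 3 had r over 0.1 (range -0.222 to 0.26), so the numbers do not pair the mice.

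Leaving out a mouse moved the log2 ratio of Slc1a2 to the astrocyte reference between -0.41 and -0.30 untreated and between -0.53 and -0.47 treated at 155 days, where 3 against 4 mice allow no exact permutation p under 0.0571. No fit of fewer groups exists for the interactions. Each of the 7 genes had at least 834 counts in each mouse.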
